A study of Homo sapiens with 4 samples.

Results

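The regions described here are the H3K4me1 peaks at 10 genes of fatty acid and triglyceride synthesis: ACACA, ACACB, FASN, ELOVL6, SCD, FADS1, FADS2, ACSL1, GPAM and LPIN1. Each gene was given as a span on hg19, rounded to 1 kb, and every distinct peak that overlapped the span or 20 kb on either side of it was taken. FADS1 and FADS2 overlap at their ends in the RefSeq gene table and share 1 span, which leaves 9 loci. They held 97 of the 160601 distinct peaks of the list. The rule that took these genes uses no peak values, but the genes were chosen with earlier results of these data known.

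The cells were HepG2, a human line derived from a liver tumour, grown in high-glucose medium with fetal bovine serum. The 4 samples were chromatin from LSD2-knockdown cells after immunoprecipitation for H3K4me1, LSD2-knockdown input, chromatin from control cells after the same immunoprecipitation, and control input, with 1 library in each group. Both kinds of cell had received siRNA with a lipid reagent, directed at LSD2 in the knockdown and, by the name in the file header, at the luciferase sequence GL3 in the control. The header names the knockdown H3K4me1 library as treatment and the control H3K4me1 library as background, and it names neither input. A peak is therefore a place where the authors' peak caller found more H3K4me1 reads in LSD2-knockdown cells than in control cells. The names of the 2 libraries in the header carry different run dates, so the knockdown and the run cannot be told apart. There is no replicate and the depth is unknown, so no comparison between the conditions has a test. The degree of LSD2 depletion was not measured here. A stretch without a peak may be unchanged, lower in LSD2-knockdown cells or too thinly covered.

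LSD2, the product of KDM1B, removes methyl groups from lysine 4 of histone H3, and monomethylation of that lysine marks enhancers and the flanks of active promoters. In hepatocytes, acetyl-CoA carboxylases make malonyl-CoA, fatty acid synthase builds palmitate from it, and elongases and desaturases lengthen the chain and add double bonds. Acyl-CoA synthetases activate the fatty acids, and acyltransferases and phosphatidate phosphatases join them to glycerol on the way to triglyceride. The transcription factor SREBP-1c induces many of these genes, together with the factors NF-Y and Sp1.

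Promoter sequences of 4 of the genes are shown because the peaks near the starts differed between them: SCD, ACACA and ACSL1 had a peak within 2 kb of the end of the span taken as the start, and ELOVL6 had none. Each runs from 250 bases before the start to 50 after it, on the gene's own strand, in RefSeq's GRCh38.p14, whereas the peaks are on hg19. The positions of the 2 builds were not set against each other. The windows are chr10:100346983-100347282 (plus strand) for SCD, chr17:37406787-37407086 (minus) for ACACA, chr4:184825919-184826218 (minus) for ACSL1 and chr4:110198566-110198865 (minus) for ELOVL6. For ACACA and ACSL1, which have several listed starts, the outermost is shown. Capitals mark CCAAT and GGGCGG on either strand, the letters of the NF-Y and Sp1 motifs.
SCD: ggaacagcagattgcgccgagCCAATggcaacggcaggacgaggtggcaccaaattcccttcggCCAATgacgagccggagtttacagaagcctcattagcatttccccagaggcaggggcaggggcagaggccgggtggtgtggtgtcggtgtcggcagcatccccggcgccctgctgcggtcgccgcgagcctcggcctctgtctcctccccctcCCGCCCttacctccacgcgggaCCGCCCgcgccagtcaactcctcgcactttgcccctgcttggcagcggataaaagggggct
ACACA: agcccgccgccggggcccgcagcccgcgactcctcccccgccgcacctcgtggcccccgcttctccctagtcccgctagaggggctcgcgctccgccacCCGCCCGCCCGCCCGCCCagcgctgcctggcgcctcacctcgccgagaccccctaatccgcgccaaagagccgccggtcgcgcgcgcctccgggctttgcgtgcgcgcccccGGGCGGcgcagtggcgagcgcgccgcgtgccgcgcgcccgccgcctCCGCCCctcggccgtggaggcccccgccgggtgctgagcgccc
ACSL1: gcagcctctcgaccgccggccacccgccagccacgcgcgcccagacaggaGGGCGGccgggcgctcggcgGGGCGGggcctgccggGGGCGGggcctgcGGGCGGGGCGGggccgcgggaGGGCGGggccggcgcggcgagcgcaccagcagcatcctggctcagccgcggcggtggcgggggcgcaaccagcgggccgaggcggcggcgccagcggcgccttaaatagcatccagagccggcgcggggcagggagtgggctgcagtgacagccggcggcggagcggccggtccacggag
ELOVL6: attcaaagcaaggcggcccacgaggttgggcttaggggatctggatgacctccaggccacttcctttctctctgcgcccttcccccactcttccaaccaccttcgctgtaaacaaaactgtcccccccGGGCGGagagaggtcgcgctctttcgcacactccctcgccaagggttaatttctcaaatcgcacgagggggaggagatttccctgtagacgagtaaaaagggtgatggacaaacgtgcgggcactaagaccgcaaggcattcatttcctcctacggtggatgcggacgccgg

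RefSeq windows were at hand for 9 of the 10 genes, all but FASN, and for 19 starts in all. CCAAT on either strand was present in 7 of the 19 windows (36.8%), against 34.6% of all 35116 promoter windows in the table. GGGCGG on either strand was in 12 (63.2%), against 45.0% of all windows. This comparison was not matched for GC content, which runs from 45.3% to 82.3% in the 19 windows and has a median of 58.7% over all windows. The 19 windows are also not independent, since 5 of them belong to ACSL1. The sterol regulatory element, searched as TCACNCCAC on either strand, was found once, in 1 of the 5 ACSL1 windows (5.26% of the 19), against 1.13% of all windows. The palindromic E-box CACGTG was in none of the 19, against 7.26% of all windows. In these windows no match of 1 motif overlapped a match of another, while GGGCGG matches overlapped each other in the windows shown for ACACA and ACSL1. Windows of 1 gene can overlap too, as the 2 of FADS2 do. In the sequences shown, SCD has 2 CCAAT boxes and 2 GC boxes, ACACA has 6 GC boxes, ACSL1 has 6 and ELOVL6 has 1. In the genes left out, the counts depend on the window taken. ACACB, not shown, also had a peak within 2 kb. The window of its outermost start has neither box, and its other window has 2 CCAAT boxes and 3 GC boxes. LPIN1, not shown and without such a peak, has neither box at its outermost start and 4 GC boxes in another window. A match is a description of the letters only.

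Pooled, the loci were close to their surroundings in peak number. The 97 peaks lay in 1.31 Mb, which gives 74.1 peaks per Mb (95% Poisson interval 60.1 to 90.4, for counting error only). The densities of the same chromosomes outside the loci would place 80.4 peaks in windows of these lengths, a ratio of 1.21 (0.978 to 1.47). The stretches of 1 Mb on each side of each locus would place 88.1, a ratio of 1.10 (0.893 to 1.34). Both intervals include 1. Leaving out 1 locus at a time, the ratio to the neighbouring stretches ran from 0.994 (without ACACA) to 1.14. The ratio to the chromosomes ran from 1.09 (without ACACA) to 1.26 (without FADS1-FADS2 or LPIN1). It was 1.39 once peaks narrower than the list's median were dropped. The intervals above are for the 9 loci and all their peaks. Whether they would include 1 under these other choices was not tested. Density was above that of the own chromosome at 5 of the 9 loci (ACACA, ACACB, ELOVL6, ACSL1 and GPAM), and 46.6% of windows of the same lengths tiled along these chromosomes were above it too. Density was above that of the neighbouring 1 Mb stretches at 4 of the 9, all of those but ACACB, and 45.7% of the tiled windows were above theirs. These shares are near the background.

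**Figure D1:**
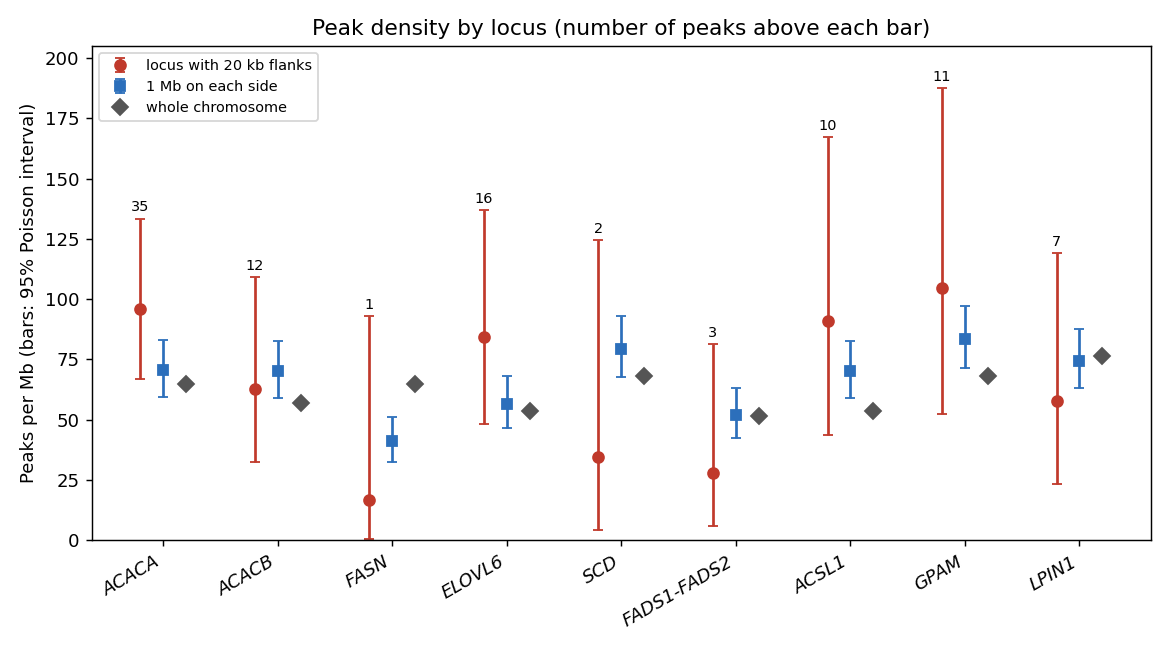
Peaks per Mb (vertical axis) at each locus with its 20 kb flanks (red circles), in 1 Mb on each side (blue squares) and on the whole chromosome (grey diamonds), with bars for 95% Poisson intervals and the number of peaks above each red bar. At each of the 9 loci the interval of the locus overlaps that of its neighbouring stretches, and FASN, SCD and FADS1-FADS2, with 1, 2 and 3 peaks, have the lowest densities.

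The loci differed among themselves. GPAM was densest at 104.8 peaks per Mb, followed by ACACA at 95.9, ACSL1 at 90.9, ELOVL6 at 84.2, ACACB at 62.5, LPIN1 at 57.9, SCD at 34.5, FADS1-FADS2 at 27.8 and FASN at 16.7. The intervals of all neighbours in this order overlapped. Only at ACACA was the density (interval 66.8 to 133.4) above its chromosome's 64.6 peaks per Mb beyond its counting interval. The 3 loci with a span of 100 kb or more (ACACA, ACACB and ELOVL6) held 63 peaks at 84.3 per Mb (64.8 to 107.9). The 6 shorter loci held 34 at 60.5 per Mb (41.9 to 84.5), and these intervals overlap.

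The peaks at each locus are laid out below in the order of the pathway, with positions counted from the gene start in the direction of transcription. The start of a gene is taken here as the end of its given span, which is rounded to 1 kb, and other starts were not located on hg19. In the GRCh38.p14 tables the outermost listed start lies 43.9 kb inside the gene for GPAM and 5.40 kb inside it for ACACB, and LPIN1 is longer there than its span. The ACACB gene is 157 kb there against a span of 152 kb, so its span may begin near that listed start. LPIN1 has 3 listed starts there, and its span of 81 kb, against a gene of 149.9 kb, may begin at an inner start. The builds were not set against each other. The starts of these 3 genes were therefore treated as uncertain, and so was what counts as upstream of them.

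ACACA encodes acetyl-CoA carboxylase 1, the cytosolic enzyme that makes malonyl-CoA for fatty acid synthesis. Its locus on chromosome 17 (span 35442000 to 35767000) held 35 peaks, the most of the 9, of which 34 lay in the span. The peaks were spread evenly along the gene. From the start onward, 5 equal stretches of the span, 65.0 kb each, held 6, 8, 6, 7 and 7 peaks. The peak closest to the start, from 35765399 to 35765853 (455 bp), had its nearer edge 1.15 kb into the gene. The widest, 1181 bp from 35655802 to 35656982, lay 110.61 kb into the gene, and another of 1105 bp lay at 97.33 kb. The longest stretch without a peak was 33.5 kb, from 155 to 188.5 kb. Tiled windows of the same length on chromosome 17 had a median of 24.0 peaks, and 10.4% of the 212 windows held 35 or more. The 1 Mb stretches on each side had 70.5 peaks per Mb, so the locus was 1.36 times as dense as they were.

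ACACB encodes acetyl-CoA carboxylase 2, whose malonyl-CoA at the mitochondrion restrains fatty acid oxidation. Its peaks on chromosome 12 (span 109554000 to 109706000) formed separate groups around a long empty stretch. Upstream, 4 peaks lay from 14.14 to 0.83 kb before the start, counted at their middles. The closest, 109552876 to 109553465, was also the widest of the locus at 590 bp, and its edge lay 0.535 kb from the start. No peak followed for 58.7 kb, to 58.2 kb into the gene, the longest empty stretch at any of the 9 loci. Of 5 equal stretches of the span, 30.4 kb each, the one at the start therefore held 0 peaks, and the next held 1, 4, 1 and 2. Within the gene a pair of peaks at 68.43 and 68.81 kb was separated by only 19 bp. The 12 peaks gave 62.5 per Mb, against 70.0 in the neighbouring stretches. In the gene table the protein-coding gene on the upstream side is UNG, the uracil DNA glycosylase gene, and whether the upstream peaks lie in it was not analysed here.

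FASN encodes fatty acid synthase, the multifunctional enzyme that makes palmitate. Its locus on chromosome 17 (span 80036000 to 80056000) held 1 peak, from 80052052 to 80052656 (605 bp), 3.34 kb into the gene. Neither 20 kb flank held a peak, which for a stretch of 20 kb allows up to 184.4 peaks per Mb by the Poisson interval. The density of 16.7 per Mb (0.422 to 92.9) stood beside 41.0 in the neighbouring stretches and 64.6 on chromosome 17. Of the 1299 tiled windows of 60 kb on that chromosome, 17.6% held 1 peak or none.

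ELOVL6 encodes the elongase that adds 2 carbons to palmitate to give stearate. Its locus on chromosome 4 (span 110970000 to 111120000) held 16 peaks, none of them near the start. The first peak after the start, from 111097423 to 111097590 (168 bp), began 22.4 kb into the gene, and the 20 kb upstream held none. Counted from the start, 5 equal stretches of the span held 1, 3, 2, 3 and 4 peaks, and 3 more lay in the 20 kb past the gene. These counts are too small to show a trend along the gene. The widest was 499 bp, from 111085140 to 111085638. The locus had the lowest median width of the 9, 296.5 bp. Its density of 84.2 per Mb (48.1 to 136.8) was 1.49 times that of the neighbouring stretches, whose interval of 46.6 to 67.9 overlaps it. Of the tiled windows of its length on chromosome 4, 13.8% held 16 or more.

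SCD encodes stearoyl-CoA desaturase, which introduces the double bond of oleate and palmitoleate. Only 2 peaks lay at its locus on chromosome 10 (span 102107000 to 102125000), and 1 of them was broad. That peak ran for 1016 bp from 102107912 to 102108927, that is, from 0.91 to 1.93 kb past the lower end of the span taken as the start, and this distance carries the rounding of 1 kb. Only 0.848% of the peaks in the list were as wide or wider. The other, of 353 bp, lay 18.50 kb upstream. The remaining 36.1 kb to the end of the downstream flank held none. The density was 34.5 per Mb (4.18 to 124.6), against 79.5 in the neighbouring stretches.

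FADS1 and FADS2 encode the delta-5 and delta-6 desaturases of polyunsaturated fatty acid synthesis. Their shared span on chromosome 11 (61567000 to 61635000) held 3 peaks and its flanks held none. They lay at 2.58, 21.27 and 37.72 kb from the lower end of the span and were 380, 652 and 168 bp wide. The widest ran from 61587941 to 61588592. The starts of these genes lie inside the span and were not located. The upper 50.2 kb of the locus was free of peaks. The density of 27.8 per Mb (5.73 to 81.2) stood beside 52.0 in the neighbouring stretches.

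ACSL1 encodes a long-chain acyl-CoA synthetase that activates fatty acids in liver and adipose tissue. Its 10 peaks on chromosome 4 (span 185677000 to 185747000) were most closely packed upstream. The 20 kb before the start held 5 peaks, between 11.99 and 18.72 kb from it, which is 250 per Mb (81.2 to 583.4). The span of 70 kb held 3 peaks, or 42.9 per Mb (8.84 to 125.2), and 2 more lay past the gene. The intervals overlap. The closest peak to the start, 185744963 to 185745288 (326 bp), had its edge 1.71 kb into the gene. The widest, 405 bp from 185714591 to 185714995, lay at 32.21 kb. The density was 90.9 per Mb (43.6 to 167.2), against 70.0 in the neighbouring stretches.

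GPAM encodes the mitochondrial glycerol-3-phosphate acyltransferase, which starts glycerolipid synthesis. Its locus on chromosome 10 (span 113910000 to 113975000) had the highest density and the widest peak of the 9 loci. That peak, 1770 bp from 113936479 to 113938248, lay 37.64 kb from the upper end of the span, and 0.0430% of all peaks were as wide or wider. A peak of 446 bp followed at a distance of 304 bp. Within the span lay 6 peaks, below it 1, and in the 20 kb above it 4, of which those of 802 and 685 bp were the next widest of the locus. Peaks covered 5.75% of the locus, against 2.89% over all loci. The density of 104.8 per Mb (52.3 to 187.4) stood beside 83.5 in the neighbouring stretches and 68.3 on the chromosome. No peak lay within 9.35 kb of the end of the span taken as the start. The listed start of GPAM lies 43.9 kb inside a gene of 77.8 kb in GRCh38.p14. The end of the 65 kb span is therefore unlikely to be that start. Peaks inside the span, at 26.67 to 57.86 kb from its upper end, may lie near the listed start, which was not placed on hg19. The 4 peaks above the span may then lie far from it.

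LPIN1 encodes lipin 1, a phosphatidate phosphatase that makes diacylglycerol. Of its 7 peaks on chromosome 2 (span 11887000 to 11968000), 4 lay in the span and 3 past it, most of them toward its far end. These counts are too small to show a trend along the gene. The 43.0 kb from the upstream limit to the first peak of the span held none. Peaks had their middles at 23.19 and 57.21 kb, and the other 5 lay from 75.04 to 94.28 kb, 3 of them past the end of the gene. The closest to the start was 289 bp wide, from 11910050 to 11910338, and the widest, 587 bp, ran from 11973478 to 11974064, past the gene's end. The density was 57.9 per Mb (23.3 to 119.2), against 74.5 in the neighbouring stretches and 76.4 on the chromosome. RefSeq lists 3 starts for LPIN1, and the gene there is longer than the span used, so peaks at another start may lie outside the locus.

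**Figure D2:**
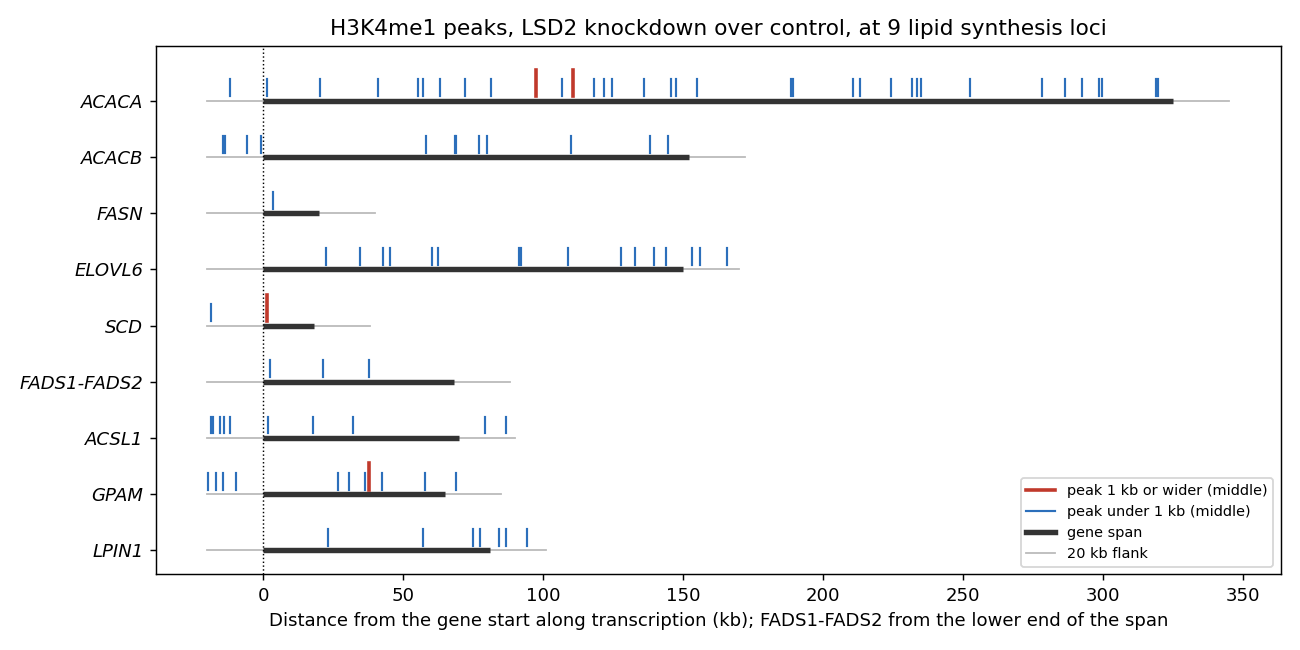
Middle of each of the 97 peaks (vertical ticks) along each locus by distance in kb from the end of the span taken as the gene start (dotted line; for FADS1-FADS2 the lower end of the shared span, which is no gene start), with the gene span in black and the 20 kb flanks in grey. Red ticks mark the 4 peaks of 1 kb or wider, at ACACA, SCD and GPAM. ACACB has no peak for 58.7 kb from just before its start. Most of the 7 LPIN1 peaks lie toward the far end of the span or past it.

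Peaks lay near the end of the span taken as the start at 4 of 8 genes. ACACA, ACACB, SCD and ACSL1 had a peak within 2 kb of it, and FASN, ELOVL6, GPAM and LPIN1 did not. Without GPAM, LPIN1 and ACACB, whose starts were treated as uncertain, 3 of 5 had one. A peak at another start of these genes would not be counted. Of windows of the same length, 4 kb, along these chromosomes, 23.9% held a peak. With 1 kb in place of 2 kb the count was 2 of 8 (ACACB and SCD), against 13.9% of windows. With 5 kb it was 5 of 8, FASN being added, against 46.5% of windows. The windows are not gene starts, so their share is a background for the list of peaks and not for promoters. At ACACA, SCD and ACSL1 the peak lay inside the span and at ACACB outside it. The distances at ACACB (0.535 kb) and SCD (0.911 kb) are under 1 kb and are counted from the rounded end of the span. No annotated start was placed on hg19, so the distance to it is not given.

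Over the 8 loci other than FADS1-FADS2, the 20 kb upstream held 15 peaks, or 93.8 per Mb (52.5 to 154.6). The gene spans held 70, or 79.5 per Mb (61.9 to 100.4), and the 20 kb downstream held 9, or 56.2 per Mb (25.7 to 106.8). These intervals overlap. ACACB, GPAM and ACSL1 accounted for 13 of the 15 upstream peaks, while FASN, ELOVL6 and LPIN1 had none there. Upstream is counted from the span here, which was treated as uncertain for GPAM, LPIN1 and ACACB. Without these 3, the 20 kb upstream held 7 peaks, or 70.0 per Mb (28.1 to 144.2), the spans 89.2 per Mb (66.6 to 117) and the 20 kb downstream 50.0 per Mb (16.2 to 116.7), so the order of upstream and span turned.

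Peaks at the loci had a somewhat higher median width than the list and their own chromosomes, and a larger share of them was 1 kb or wider. The median of the 97 widths was 355 bp, against 316 bp over all peaks. Their lower quartile was 259 bp and their upper quartile 419 bp, against 229 and 396 bp over all peaks, and the narrowest was 155 bp. A width of 1 kb or more was reached by 4 of the 97 peaks, or 4.12% (95% Wilson interval 1.62 to 10.1%), against 0.899% of all peaks. These were the GPAM peak of 1770 bp, the ACACA peaks of 1181 and 1105 bp and the SCD peak of 1016 bp. Chromosome 17, with 334 bp, has the widest median of the 6 chromosomes concerned, and the other peaks of the same chromosomes, weighted to the makeup of the loci, had a median of 321 bp and a share of 1.19% at 1 kb or wider. Without ACACA, 2 of 62 peaks were that wide, or 3.23% (0.889 to 11.0%), against 0.775% on the same chromosomes. This interval includes the 0.899% of the whole list but not the 0.775%, and it rests on 2 peaks. Peaks covered 37.8 kb or 2.89% of the loci, and the whole list covers 2.03% of the effective genome size, which is an unlike denominator. By covered bases the ratio was 1.34 to the same chromosomes and 1.16 to the neighbouring stretches.

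**Figure D3:**
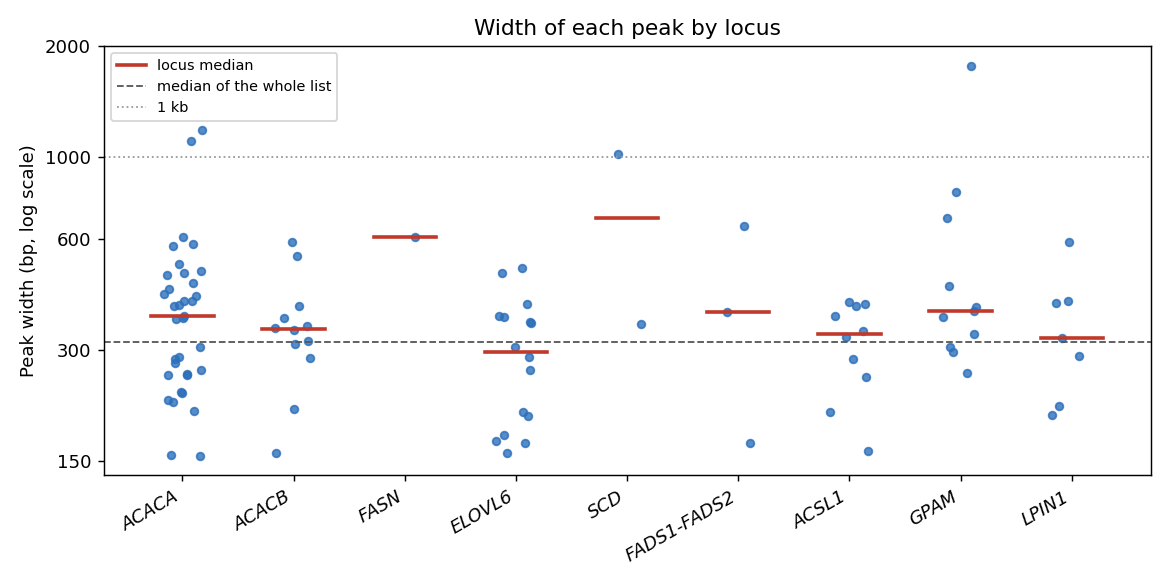
Width in bp (vertical axis, log scale) of each peak (points) at each locus, with the locus median as a red bar, the list median of 316 bp as a dashed line and 1 kb as a dotted line. ELOVL6, with a median of 296.5 bp, is below the list median, the other 8 loci are above it, and GPAM holds the widest peak at 1770 bp.

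Spacing and repeated listing were near the background. Another peak lay within 5 kb of 58 of the 97 peaks, or 59.8% (49.8 to 69.0%), against 52.2% of all peaks. Within 1 kb the number was 18, or 18.6%, against 18.2%. These 18 formed 9 pairs: 3 at ACACA, 2 each at ACACB and ACSL1, and 1 each at ELOVL6 and GPAM. In the deposited rows, 10 of the 97 peaks (10.3%, 5.70 to 17.9%) were written more than once, against 10.7% of all peaks, and each of these was written 2 times. All 4 upstream peaks of ACACB were among them and none of the 8 within its span. The others were 3 at ACACA, the closest to the start included, 2 at FADS1-FADS2 and the broad peak at SCD.

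Of the 18 outer limits of the loci, 5 had an inside peak within 5 kb and 1 had an outside peak within 5 kb. The peak nearest to a limit from inside was 0.228 kb within it, at the upper limit of GPAM. The nearest from outside was 3.04 kb beyond its limit, upstream of ACACA. None of the 18 limits had an outside peak within 1 kb.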

How the data were processed

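H3K4me1 chromatin from LSD2-knockdown and control HepG2 cells was sequenced with an input of each, 1 library per group. The submitters' processing notes name BWA and hg19, with no version. Per the file header, the authors trimmed reads, removed duplicates and called peaks with MACS, knockdown over control. Settings in the header were 128 bp for reads and fragments, 2700000000 bp for the effective genome, 1e-05 as the p-value cutoff and 32 as the enrichment factor. The 3 deposited columns are chromosome, start and end, so all peaks count alike. Whether a peak is called rests on how deeply each library was sequenced and how well each ChIP worked, both unknown. Regions higher in control cells were not analysed here.

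The 180505 deposited rows gave 160601 distinct peaks. Positions are counted from 1 on hg19. A peak belonged to a locus if 1 base overlapped the span with 20 kb flanks. Chromosome densities leave out peak-free gaps over 1 Mb. Poisson and Wilson intervals (95%) hold for counting error alone and take peaks as independent. Windows for the background were tiled end to end. Counting was tested on simulated data. Python 3.11.15, pandas 2.3.3, SciPy 1.17.1 and Matplotlib 3.10.9 were used. All 10 genes are named, and per locus the widest peak and the one nearest the start; others were chosen after their values were seen. The members and lists were chosen with earlier results of these data known, and the 1 kb width and the 5 kb distance were taken from an earlier description of the list. Direction of transcription is from general knowledge and matched the RefSeq table for the placed starts it lists. No hg19 annotation was used here, so other genes of the pathway were not analysed.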

Additional observations from a re-analysis of the deposited data

How the results depend on the processing

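Of 81 values recomputed under other settings, 76 stayed within the counting interval, 1.5-fold or 1 SD of the reported ones. The SD, used for the median width alone, is that of single peak widths, which run from 155 to 1770 bp. A median could hardly move beyond it, so for the width this count says little. The peak number was likewise fixed in part. Leaving out any locus but ACACA removed too few of the 97 peaks to pass 1.5-fold, and counting by midpoint gave the same 97. Keeping only peaks at or above the median width of the list left 58 peaks at 44.3 per Mb, fewer by construction. With 1 kb in place of 2 kb, 2 starts had a peak, and 3 had one without GPAM, LPIN1 and ACACB, a choice made after seeing the data, as was the comparison of widths with the same chromosomes. Leaving out 1 locus at a time gave 62 to 96 peaks (62 without ACACA), 65.7 to 78.3 per Mb, a ratio to the same chromosomes of 1.09 to 1.26 and to the neighbouring stretches of 0.994 to 1.14, and a median width of 346 to 367 bp. Without ACACA the ratio to the neighbouring stretches turned below 1, at 0.994, so its direction rests on that locus. The ratio to the chromosomes was between 1.16 and 1.39 under the other alternatives (1.34 by covered bases), and the ratio to the neighbouring stretches between 1.04 and 1.22. No library could be left out, and no result comes from a test. No paired analysis was possible because the groups hold a lone library each. Depth is unknown and limits every count: a locus with few peaks, such as FASN with 1, cannot be told apart from one with too few reads.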
